A study of Drosophila melanogaster with 4 samples.

Results

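Divergent locus pairs are neighbouring loci on opposite strands whose 5' ends lie back to back, so that transcription runs outward from a shared stretch of DNA. In a catalogue of full-length transcripts from testes of Drosophila melanogaster, 507 such pairs had outermost 5' ends at most 500 bp apart without overlap. They took in 1014 of 9100 loci (11.1%, 95% exact binomial interval 10.5 to 11.8), and 0 loci belonged to more than 1 pair. The pairs were selected on the positions of their outermost starts, so their number and gaps are a description and carry no test.

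The transcripts were read with PacBio Iso-Seq, in which polyadenylated RNA is sequenced as full-length cDNA. In 2 samples the males carried bamGAL4 together with KmgRNAi, a knockdown of the zinc-finger protein gene kmg, and in 2 control samples they carried bamGAL4 alone. The bamGAL4 driver, shared by both groups, is active in spermatogonia, so the knockdown was directed to the germ line and not to the somatic cells of the testis. Each sample pooled 150 pairs of testes from males 0 to 2 days old, whose parents were kept at 25 °C for 3 days before the progeny were moved to 29 °C. All 4 samples were merged by the authors into 1 catalogue of 40180 isoforms that holds no read number and names no sample. Knockdown and control testes could therefore not be compared, the knockdown of kmg could not be checked, the depth is unknown, and no spread between replicates can be given. Intervals cover counting error over loci, and loci are not replicates. Among markers of the tissue, isoforms were listed for 29 of 31 genes of spermatid differentiation and 11 of 13 meiotic arrest genes. They were also listed for the somatic regulators tj, eya and zfh1 and for the muscle myosin gene Mhc, but not for the neuronal gene elav.

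In a divergent arrangement each gene has its own core promoter, facing away from that of its neighbour, and the DNA between them can be a nucleosome-depleted region used by both. Regulatory proteins bound there can act on either gene, and insulator proteins can separate the pair. In compact genomes such as that of the fly many housekeeping genes lie head to head, and in testis many genes switch to promoters used in spermatocytes. No genome or promoter sequence of the build was used here, so the bases between the starts are not shown.

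The gap between the outermost starts had a median of 278 bp (quartiles 144.5 and 373 bp, range 1 to 498 bp). Gaps were not spread evenly: 249 of 507 pairs (49.1%) had 200 to 399 bp, and 44 pairs had less than 50 bp. In classes of 100 bp, 94 pairs lay at 0 to 99 bp, 69 at 100 to 199 bp, 125 at 200 to 299 bp, 124 at 300 to 399 bp and 95 at 400 bp or more. The class of 100 to 199 bp thus held fewer pairs than either class beside it. In steps of 25 bp the fullest was 275 to 299 bp with 41 pairs, and the emptiest was 150 to 174 bp with 14 pairs. Beyond the limit, 197 further pairs lay over 500 and up to 1000 bp apart, and 224 pairs of loci overlapped head to head by 1 to 500 bp.

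**Figure D1:**
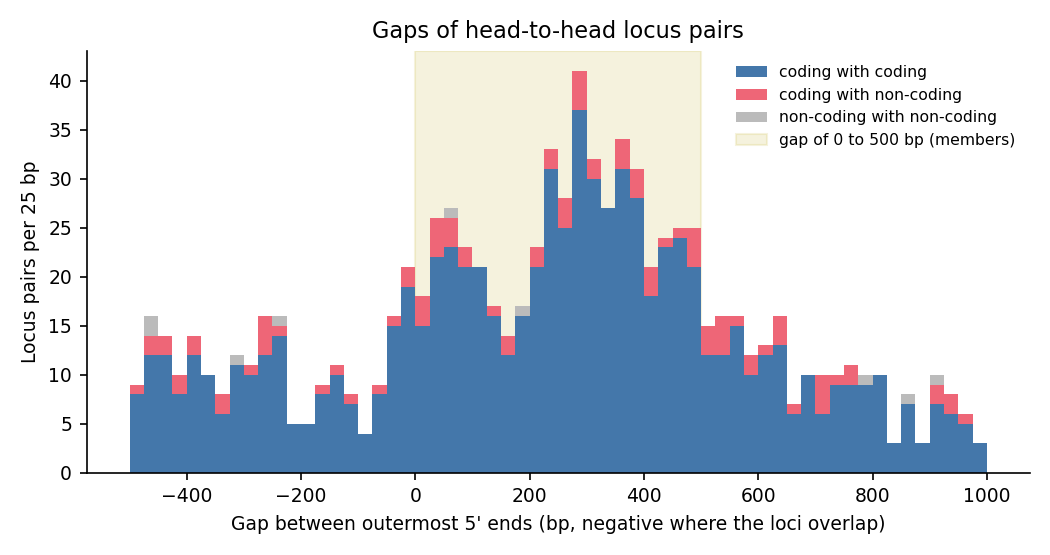
Number of locus pairs (vertical axis) by the gap between their outermost 5' ends in bp (horizontal axis, negative where loci overlap head to head, out to 500 bp of overlap and 1000 bp of gap), in bars of 25 bp coloured by coding class. The shaded stretch is the selected range. Among the 507 pairs within the limit, the fullest bar is 275 to 299 bp (41 pairs), between bars of 28 and 32 pairs. The emptiest is 150 to 174 bp (14 pairs), between bars of 17 pairs each.

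At the limit itself, the widest pairs were an unnamed locus with CG14717 (498 bp), eIF5 with exd (498 bp) and, both at 497 bp, CG16865 with Sos and ATPsynCF6 with an unnamed locus. Here eIF5 is a translation initiation factor gene, exd a homeodomain cofactor gene and Sos a Ras exchange factor gene. Just outside lay PI31 with ADD1 (509 bp), a pair of unnamed loci on 3L (511 bp) and CG7329 with an unnamed locus (512 bp).

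The smallest gap was the 1 bp between Srrm234, the minus-strand locus whose outermost start was at 3L 1665049, and CG7974, whose outermost start was at 1665051. Of 9 Srrm234 isoforms, 4 started at 1665023, 1665031, 1665043 and 1665049, 1 at 1664928 and 4 between 1660026 and 1660074. The 4 CG7974 isoforms started at 1665051, 1665146, 1665415 and 1665642. Each locus therefore reached the contact point with a single isoform, and the median starts of the pair lay 351.5 bp apart.

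The next pair, Oseg1 with Exo70 (3 bp, 3L 8411834 and 8411838), joins a gene for an intraflagellar transport protein with a gene for a subunit of the exocyst, the complex that tethers secretory vesicles. All 3 Oseg1 isoforms started over 100 bp inside the RefSeq gene, the outermost at 991 bp, and the RefSeq spans of both genes overlap by 975 bp. The cuticle protein gene Cpr56F and the casein kinase gene CkIIbeta2 (4 bp, 2R 20289577 and 20289582) had 1 isoform each. The Cpr56F isoform was unspliced and started 2368 bp inside the RefSeq span, which overlaps that of CkIIbeta2.

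The 4 isoforms of CG5478 started within 19 bp of each other, ending at 3R 15933746, 5 bp from the single outermost start of blp at 15933752. The gene blp encodes a factor of mitochondrial protein import, and its 4 starts spanned 385 bp. CG10445 and lds lay 7 bp apart (3R 7919887 and 7919895), as did CG13623 and ana1, which come after them by position. The gene lds encodes a factor that releases RNA polymerase from the template. For lds, 1 of 12 isoforms reached the outermost start, 536 bp upstream of the RefSeq end.

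RefSeq gene spans gave a second view of the same pairs, but not an independent one. A gene could give a name only if an isoform matched either of its ends within 200 bp. Closeness of the positions is thus partly set by the naming. Both facing genes, the genes at the outermost starts, were named in 444 pairs, 1 was named in 58 pairs and neither in 5. In 384 of the 444 (86.5%) the RefSeq spans also lay 0 to 500 bp apart, in 24 they overlapped and in 36 they lay farther apart, 11 of them over 1000 bp. The catalogue gap was within 50 bp of the RefSeq gap in 242 pairs, and the median gap was 274 bp by either source. Both outermost starts lay within 100 bp of the RefSeq 5' ends in 301 pairs (67.8%). The widest RefSeq gap was 2531 bp, for CG9917 and CalpC, a gene of the calpain family, whose listed starts were 133 bp apart. At the other end, the RefSeq span of CG1677 ran 119440 bp past the start of CG2059, while the listed loci faced each other at 458 bp.

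By coding potential, 462 pairs (91.1%, interval 88.3 to 93.5) joined 2 loci with a coding sequence (CDS) in the catalogue. Another 43 (8.48%, interval 6.21 to 11.3) joined a coding with a non-coding locus, and 2 (0.394%) joined non-coding loci. A CDS was listed for 967 of 1014 loci in pairs (95.4%) and for 6796 of 8086 other loci (84.0%). In RefSeq, 430 of the 444 pairs with both names joined protein-coding genes. The median gap was 279 bp in coding pairs and 267 bp in mixed pairs, and a gap under 100 bp was found in 81 of the 462 (17.5%) and in 12 of the 43 (27.9%).

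A locus without a CDS in the catalogue was often not a non-coding gene. Of the 47 such loci in pairs, 20 faced outward with a gene that RefSeq lists as protein-coding, 10 with a long non-coding RNA gene and 17 had no name. A single isoform was listed for 31 of them, 32 had a spliced isoform, and the longest isoform had a median of 912 nt. Short reading frames were rare in the catalogue as a whole: 346 of 36534 isoforms with a CDS had one under 300 bp.

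The sperm-tail protein genes Mst84Db and Mst84Da show this. They were 194 bp apart (3R 7365650 and 7365845) with 1 spliced isoform each, of 433 nt and 363 nt, and neither isoform was given a CDS. Likewise UQCR-6.4 (304 nt), mRpS21 (407 nt) and ATPsynepsilonL (447 nt), named for parts of the respiratory chain, the mitochondrial ribosome and ATP synthase, had 1 isoform and no CDS. Other protein-coding genes of RefSeq without a CDS here had longer isoforms, among them CG18213 (2991 nt), Oda (1730 nt) and CG43922 (1462 nt). The other pair with no CDS at either locus was CG4267 with lncRNA:CR42859, 74 bp apart. RefSeq lists CG4267 as protein-coding, its single isoform was unspliced, and the RefSeq spans of both genes overlap by 45 bp. The 5 isoforms of lncRNA:CR42859 had starts that all lay within 40 bp.

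Among the mixed pairs, CG43178 had the most isoforms without a CDS, with 9, and its outermost start at 2R 10353123 lay 215 bp from that of CG46298. The 5 isoforms of CG46298 started within 34 bp, whereas 1 of 9 at the CG43178 locus, which holds isoforms of 2 genes, started within 100 bp of its outermost start. Oda came next with 5 isoforms, 81 bp from CCT5, a gene for a subunit of the cytosolic chaperonin. Oda encodes ornithine decarboxylase antizyme, a regulator of polyamine levels whose reading frame is completed by a programmed ribosomal frameshift. Its outermost start at 2R 12174261 lay 3 bp from the RefSeq end, and that of CCT5 at 12174343 lay 459 bp upstream of its own.

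CG18213 followed with 4 isoforms, up to 14 exons and no CDS, 481 bp from the tRNA methyltransferase gene Trm7-32. Then came osi (3 isoforms, 363 bp from CG42556), an unnamed plus-strand locus at 2R 10049033 to 10050874 (3 isoforms, 402 bp from the acyltransferase gene oys) and lncRNA:CR43685 (3 isoforms, 255 bp from e(y)2b). The 3 starts of lncRNA:CR43685 lay within 7 bp of each other. CG43922 (38 bp from CG13984) and an unnamed locus at 2L 9615087 to 9616111 (243 bp from GlcAT-S, a glucuronyltransferase gene) had 2 isoforms each, and in both the isoforms shared 1 start. In all, 9 such loci in mixed pairs had 2 isoforms, and these were taken first by chromosome and position. Of the 8 pairs named, 5 thus have a coding gene by RefSeq where the catalogue has no CDS.

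Several pairs of regulatory RNAs were picked out after their values were seen. lncRNA:let7C, the primary transcript of the microRNAs let-7, miR-100 and miR-125, had 1 isoform of 4 exons at 2L 18455891, 14 bp from the outermost start of bsf, a gene for a mitochondrial RNA-binding protein. RefSeq places both genes 1129 bp apart, because bsf isoforms reached 1289 bp upstream of its annotated end. The antisense RNA gene asRNA:CR43948 (7 isoforms, 1 of them with a CDS) lay 18 bp from the single unspliced isoform of eve, a segmentation gene, at 2R 9979577 and 9979596. In RefSeq the spans of these genes overlap by 266 bp, and the eve isoform began 277 bp inside.

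First exons were measured on the isoform that sets the outermost start. This is the isoform the pairs were selected by, so the lengths are a description. In 890 loci of pairs where that isoform was spliced, the first exon had a median of 246 bp (quartiles 162 and 481 bp), against 290 bp (164 and 563.8 bp) in 6238 other loci. The outermost isoform was unspliced in 12.2% of loci in pairs (interval 10.3 to 14.4) and in 22.9% of other loci (21.9 to 23.8). Each median of the first exon lies inside the quartiles of the other set.

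The leader, the transcribed stretch before the CDS, had a median of 177 nt in pairs and 241.5 nt in other loci. How far the outermost start lies from the annotated end differed too. It was within 100 bp of the RefSeq 5' end in 758 of 946 named loci in pairs (80.1%) and in 65.1% of other loci. It lay over 100 bp upstream in 10.2% and 20.4%. Pairs whose loci overlapped were left out by the rule, so these shares are partly set by the selection and are a description. Among loci whose outermost start was within 100 bp of the RefSeq end, the median first exon was 244 bp in pairs and 256 bp in other loci, and the median leader was 154 nt and 169 nt. On the autosomal arms the median first exon was 238 bp in pairs and 290 bp in other loci. On X the direction was opposite, with 306 bp (quartiles 179 and 580 bp) in pairs and 288 bp (156 and 574.5 bp) in other loci. The direction was also opposite in loci with 10 or more isoforms, with 317.5 bp in pairs and 276 bp in other loci. The median leader on X was 208 nt in pairs and 210 nt in other loci.

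**Figure D2:**
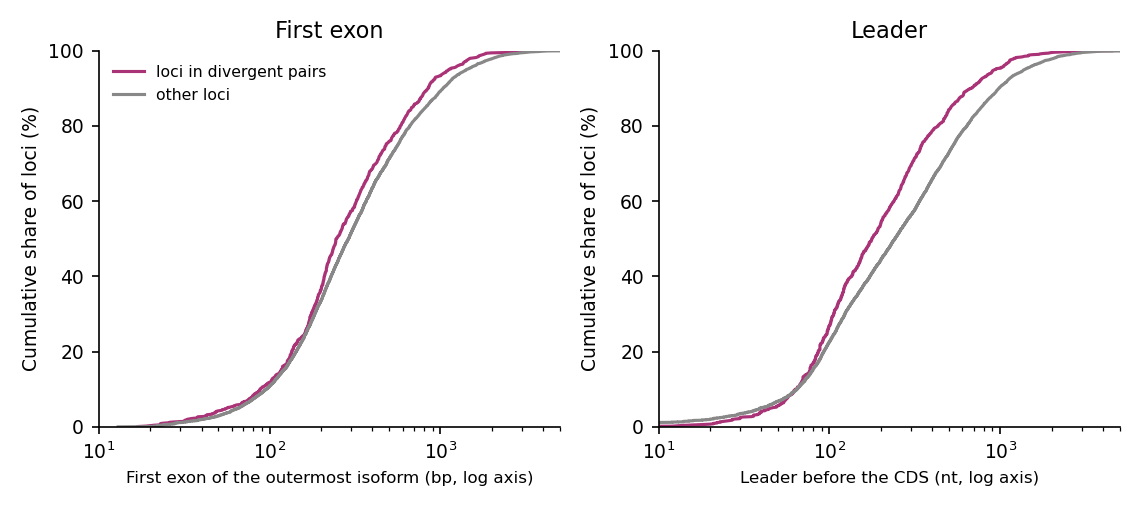
Cumulative share of loci in percent by the length of the first exon of the outermost spliced isoform (left, bp, log axis) and of the leader (right, nt, log axis), for loci in divergent pairs and other loci. The medians of 246 and 290 bp for first exons and of 177 and 241.5 nt for leaders put the curve of the pairs to the left.

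The longest first exon among spliced loci in pairs was that of pygo, a nuclear cofactor gene of Wnt signalling, with 3375 bp. Its partner rod, a kinetochore checkpoint gene 233 bp away, had a first exon of 207 bp. After pygo came CG43691 (2811 bp, 369 bp from AttC, an antimicrobial peptide gene), an unnamed locus (2673 bp) and CG10731 (2635 bp). The shortest was that of tefu, the gene for the DNA damage kinase ATM, with 17 bp, followed by GCC185, a golgin gene (19 bp), CCT1, another chaperonin gene (20 bp), and Atac3 (21 bp).

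The partner of tefu was the chaperone gene Hsc70-4, with a first exon of 109 bp and starts at 3R 15242237 for tefu and 15242691 for Hsc70-4, 453 bp apart. All 3 CCT1 isoforms started within 17 bp, but its short first exon was measured on the outermost isoform alone. Across 401 pairs with both outermost isoforms spliced, Spearman's rank correlation between the partners' first exon lengths was 0.042. Between the partners' isoform numbers it was 0.039 across 507 pairs. These values describe 1 catalogue, in which partners share the merging and filtering.

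Within a locus the starts were seldom at a single point. These are the positions where listed isoforms begin, and whether each is a transcription start was not tested. Among 769 loci in pairs with 2 or more isoforms, the starts spanned a median of 1180 bp (quartiles 172 and 4068 bp), against 1208 bp (111 and 5547 bp) in 5509 other loci. The span exceeded 1000 bp in 52.7% of loci in pairs and 53.0% of other loci, and every start lay within 100 bp in 20.6% and 24.3%. It grew with the number of isoforms: in pairs the median was 98 bp with 2 isoforms, 563 bp with 3 to 4, 2442 bp with 5 to 9 and 7708 bp with 10 or more. In other loci it was 45, 749, 2790 and 9682.5 bp in the same classes. Loci in pairs thus had the higher median with 2 isoforms and the lower one in the other classes, inside overlapping quartiles throughout.

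**Figure D3:**
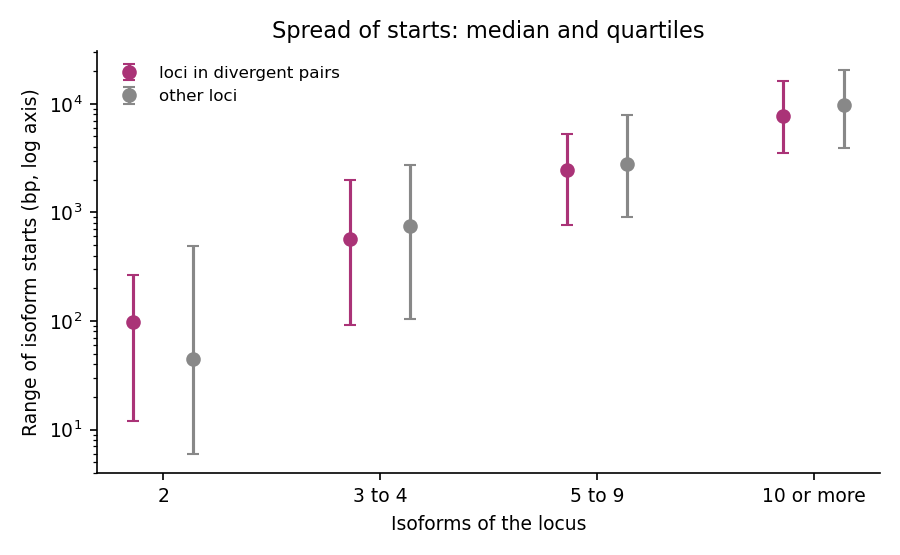
Span of isoform starts within a locus in bp (log axis), by the number of isoforms, with medians as points and quartiles as bars, for loci in divergent pairs and for other loci. Medians in pairs are 98, 563, 2442 and 7708 bp for 2, 3 to 4, 5 to 9 and 10 or more isoforms, against 45, 749, 2790 and 9682.5 bp in other loci.

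Some of this width came from loci that hold several genes. Isoforms of 2 or more RefSeq genes shared a locus in 169 of 1014 loci in pairs (16.7%) and in 12.8% of other loci. Counting the facing gene alone, the median span was 561.5 bp in pairs and 605 bp in other loci. Since the outermost start can rest on 1 isoform, the distance between the median starts of both loci was also measured. It had a median of 649 bp, and in 219 of 507 pairs (43.2%) it was within 500 bp. In 135 pairs both loci had at least 2 isoforms starting within 100 bp of the outermost start, while 34 pairs had a single isoform on both sides.

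The widest span over a whole locus was 108886 bp at bbg, a gene for a PDZ-domain protein on 3L, followed by klar, a gene for a nuclear positioning factor (106785 bp), an unnamed locus on 3R (95048 bp), CG32264 (87914 bp) and bol (80926 bp). The loci of klar, CG32264 and bol hold other genes too. Counting the facing gene alone, the span was 92534 bp for klar, 87914 bp for CG32264 and 25844 bp for bol. At the other extreme, all 8 isoforms of CG3124 started at the same base, 2R 23284113. Its partner atlas had 4 isoforms within 34 bp, 103 bp away, so the listed starts lay close together on both sides of that gap. Narrow spans were also found at CG4983 (22 bp), CG46298 (34 bp), lncRNA:CR42859 (40 bp) and CG14339 (58 bp), each with at least 5 isoforms.

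The pairs best covered by isoforms at both loci show how starts are laid out around the gap. Mcr, a gene of the complement-related macroglobulin family, and Bsg, the gene for the membrane glycoprotein basigin, lay 446 bp apart on 2L. For Mcr, 4 of 8 isoforms started at exactly 8082975 and the other 4 between 8076426 and 8076537. For Bsg, 10 of 21 isoforms started between 8083422 and 8083436, 7 started together at 8088306 and the others at 8083983, 8088196, 8088223 and 8089394. Both genes thus had a compact group of starts at the gap and another several kilobases inside the gene.

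TAF1C-like, named for a factor of RNA polymerase I, and MESK2 were 103 bp apart on 2R (21501982 and 21502086). At MESK2, 11 of 23 isoforms shared the start at 21502102 and 1 more lay at 21502086. Towards the gap TAF1C-like had single isoforms at 21501974 and 21501982. On the plus side of this gap 11 isoforms thus shared 1 start. The other MESK2 starts held 1 or 2 isoforms each, as did all those of TAF1C-like. How much each start was used is unknown without read numbers.

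The endosome GTPase gene Rab5 and Axud1, a gene for a nuclear protein, were 49 bp apart (2L 2365272 and 2365322). A single Rab5 isoform reached the outermost position, and the other 9 started between 2364721 and 2365004. The Axud1 locus had 3 isoforms at 2365322, 2365344 and 2365347 and 8 from 2367746 onward. It holds isoforms of 3 genes, and 4 of the 11 are Axud1 itself, with starts spanning 2424 bp. The gap of 49 bp at this pair therefore rests on 1 Rab5 isoform, although RefSeq gives 71 bp.

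**Figure D4:**
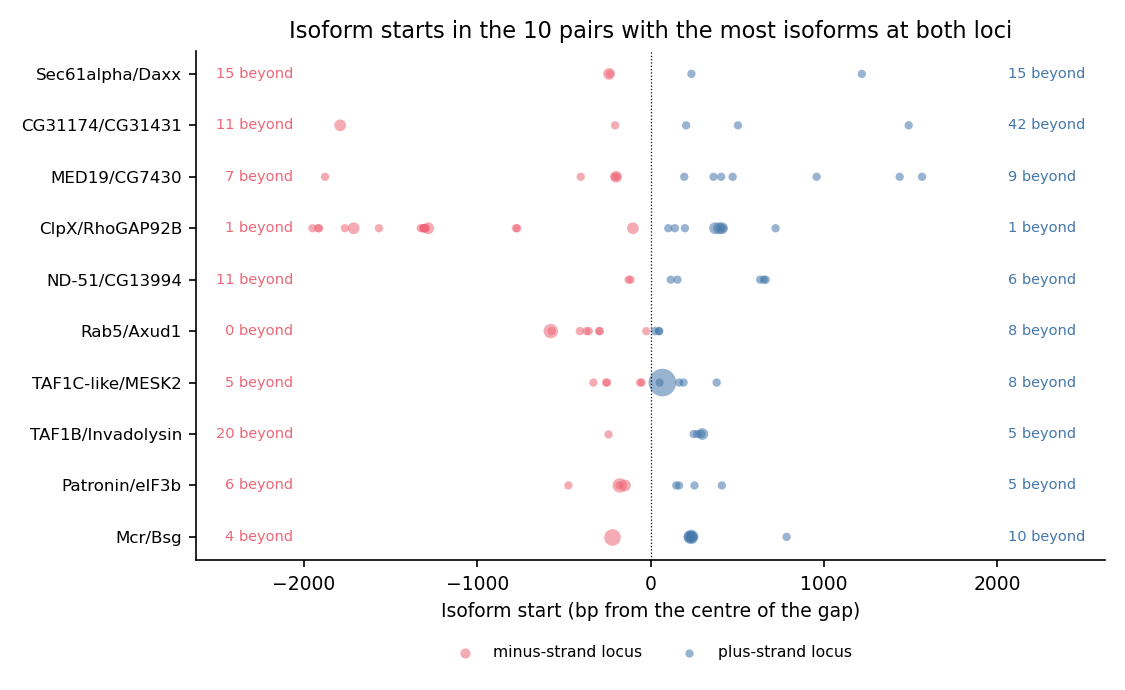
Starts of isoforms around the gap in the 10 pairs with most isoforms at both loci, as distance in bp from the centre of the gap, with minus-strand loci to the left and plus-strand loci to the right. Point area grows with the number of isoforms at a position and isoforms beyond 2000 bp are counted in the margin, so the 11 MESK2 isoforms at 1 start stand out.

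Sec61alpha, the gene for the channel of protein translocation into the endoplasmic reticulum, and Daxx, a histone chaperone gene, had 18 and 17 isoforms and a gap of 470 bp (2L 6480460 and 6480931). Their loci also held other genes, and the median starts lay 18566 bp apart. The facing Sec61alpha gene alone had 3 isoforms within 4 bp. Similarly, the complex I gene ND-51 (13 isoforms at its locus, 2 of them ND-51 itself) lay 231 bp from CG13994, with both outermost starts 28 bp from the RefSeq ends.

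For ClpX, the ATPase gene of a mitochondrial protease, 20 of 21 isoforms belonged to the gene, and its outermost start lay 1177 bp upstream of the RefSeq end. With RhoGAP92B the gap was 203 bp in the catalogue and 1474 bp in RefSeq. Only 2 ClpX isoforms stood at that outermost start, and the next start lay 667 bp inside. CG31174 (14 isoforms) and CG31431 (45 isoforms) were likewise closer in the catalogue, at 409 bp, than in RefSeq, at 1166 bp. This gap rests on 1 isoform at each outermost start. The next CG31174 start lay 1586 bp inside, and 13 CG31431 isoforms started together 7231 bp inside. In both pairs the minus-strand locus began upstream of its RefSeq span, by 760 bp at CG31174.

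The other pairs of this group kept close to RefSeq. Patronin, a gene for a protein of microtubule minus ends, and the translation factor gene eIF3b had a gap of 295 bp, against 346 bp in RefSeq. MED19, a Mediator subunit gene, and CG7430 had 387 bp, against 414 bp. The RNA polymerase I factor gene TAF1B and the metalloprotease gene Invadolysin had 496 bp, against 483 bp, and TAF1B itself made up 2 of the 21 isoforms of its locus.

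Pairs of genes with a shared symbol stem included the alkaline phosphatase genes Alp10 and Alp9 (100 bp) and scpr-B with scpr-A (175 bp). Others were Mst84Db with Mst84Da (194 bp) and the insulator-binding factor genes Ibf2 and Ibf1 (375 bp). The pairs c12.1 with c12.2 and l(2)37Cb with l(2)37Cd also share a stem. In scpr-B and scpr-A both isoforms of each gene shared 1 start, at 3R 11241000 and 11241176, with first exons of 135 bp and 140 bp and CDS of 789 bp and 795 bp. How reads of such close copies were assigned is not given in the sources used here. Alp10 and Alp9 were less regular: the outermost Alp9 isoform was unspliced and started 1422 bp upstream of the RefSeq end, and the Alp10 starts lay at least 1253 bp inside that gene.

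Gene groups were read as the share of genes facing outward at a locus that were in a divergent pair, which was 946 of 6875 (13.8%) over all named facing genes. Mitochondrial ribosomal proteins had 14 of 36 in pairs (38.9%), and respiratory chain genes 15 of 51 (29.4%). For DNA replication and repair it was 7 of 26 (26.9%), for Mediator and RNA polymerase subunits 6 of 24 (25.0%) and for general transcription factors 3 of 14 (21.4%). Genes with symbols starting RpL or RpS had 10 of 51 (19.6%). Aminoacyl-tRNA synthetases had 3 of 22 (13.6%), heat shock and chaperone genes 2 of 15 (13.3%) and proteasome genes 2 of 29 (6.90%). No test was made of these shares, and the lists were chosen with results of these data known.

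Mitochondrial genes had partners of many kinds. The 14 mitochondrial ribosomal genes lay at gaps of 19 bp (mRpS18A, beside an unnamed locus) to 481 bp (mRpL22, beside the integrin gene if). Among the 14 mitochondrial ribosomal genes, mRpS7 faced the cell cycle kinase gene Cdk1 (381 bp, 2L 10386636, 1 isoform each), and mRpL21 faced rept, a helicase gene of chromatin complexes (74 bp). Among respiratory chain genes, ND-24 faced corolla, a gene of the synaptonemal complex in female meiosis (217 bp, X 17632323, with 2 and 5 isoforms). Here ND-23 faced spn-E, a helicase gene of the piRNA pathway that the symbol rule had placed among repair genes (205 bp, 1 isoform each). On X, ND-B16.6 faced kdn, the citrate synthase gene (195 bp), and ND-ASHI faced Fum1, a fumarase gene (158 bp), so in both cases a respiratory chain subunit lay beside an enzyme of the citric acid cycle. The outermost ND-ASHI start lay 829 bp inside its RefSeq span, however, and the spans of ND-ASHI and Fum1 overlap by 695 bp. UQCR-C1 faced the cyclin gene CycC at 44 bp.

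Among genes of DNA replication and transcription, Mcm6 of the replicative helicase faced CG3198 (419 bp, 1 isoform each), and PolD3 of DNA polymerase delta faced Uxt (240 bp). Polr2I, a subunit of RNA polymerase II, faced su(Hw), the gene of an insulator protein (468 bp, with 1 and 8 isoforms). The largest locus of these lists was that of TfIIFalpha, a general transcription factor gene, with 22 isoforms, 109 bp from CG1024. The 10 genes with symbols starting RpL or RpS include RpL24-like and RpLP0-like. Their gaps ran from 13 bp (RpL24-like with CG5276) to 491 bp (RpL31 with CG12929). Of these genes, RpS27 had 4 isoforms and faced the nuclear pore gene Nup37 (280 bp). The ribosomal paralogue RpS19b had 1 isoform, 358 bp from CG5854.

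Of the proteasome genes, Rpn8 of the lid faced Slik, a protein kinase gene, at 22 bp. The outermost Rpn8 start lay 2939 bp inside the RefSeq span, which overlaps that of Slik by 2653 bp. Prosbeta4 of the catalytic core faced Nubp1 at 475 bp. AlaRS-m, the mitochondrial alanyl-tRNA synthetase gene, had 9 isoforms at its locus and lay 32 bp from Fitm. The small heat shock gene Hsp67Bc lay 70 bp from CG4456, with 5 isoforms on each side.

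The lists tied to spermatogenesis are short, and their shares lay near the 13.8% of all named facing genes. Of the kmg and remodeller list 1 of 7 facing genes was in a pair (14.3%), Caf1-55, a histone chaperone gene (141 bp from CG31344, 3R 15225578). Of the meiotic arrest list 2 of 11 were (18.2%): achi, a homeodomain gene (333 bp from CG13151), and topi, a zinc-finger gene (422 bp from Whamy, an actin regulator gene). Of the spermatid list 4 of 20 were (20.0%): bol, tHMG1 and, in 1 pair together, Mst84Da and Mst84Db. The spermatid gene gdl was in no pair. With such small numbers 1 gene moves a share by 5 percentage points or more.

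For topi the outermost start was at 3R 9775000, 121 bp upstream of the RefSeq end, and its locus had 10 isoforms, 7 of them topi. All 4 Whamy isoforms started within 37 bp, the outermost at 9774577 and 158 bp upstream of the RefSeq end, so the gap was 422 bp against 701 bp in RefSeq. The RNA-binding protein gene bol, which acts in meiosis, lay 74 bp from Dhpr, the gene for dihydropteridine reductase, on 3L. Its locus held 45 isoforms of 3 genes, 19 of them bol, and 3 started within 100 bp of the outermost position at 9134487. The HMG-box gene tHMG1 lay 381 bp from CCT1, and 1 of 10 isoforms at its locus was tHMG1 itself.

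By chromosome, loci on X were in divergent pairs in 222 of 1321 cases (16.8%, interval 14.8 to 18.9). On the autosomal arms it was 792 of 7770 (10.2%, interval 9.53 to 10.9), with 8.28% on 2L, 10.2% on 2R, 10.2% on 3L and 11.7% on 3R. The ratio of X to autosomal shares was 1.65, and it was below 1 with RefSeq gene spans in place of the listed loci. Among RefSeq genes given a strand, 293 of 1318 on X (22.2%, interval 20.0 to 24.6) and 1977 of 8310 on the autosomal arms (23.8%, interval 22.9 to 24.7) were in a divergent pair, a ratio of 0.934. The higher share on X was thus seen with the listed loci and not with the gene spans. On Y 0 of 9 loci were in a pair, which allows a share of up to 33.6% by the exact interval.

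The 1180 divergent pairs of RefSeq genes were followed into the catalogue. On X 86 of 151 (57.0%) formed a listed pair, against 309 of 1029 (30.0%) on the autosomal arms. The loci of both genes overlapped in 38 of 151 (25.2%) on X and in 573 of 1029 (55.7%) on the autosomal arms. Starts over 500 bp apart accounted for 18 pairs on X and 51 on the autosomal arms, and a gene without a named isoform for 9 and 96.

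Overlap of the loci moved with the number of isoforms, and within isoform classes its share was lower on X, with intervals that overlap in the class of 11 or more and in the class of 2 to 5. With 2 to 5 isoforms in the pair together, loci overlapped in 13.6% of 59 pairs on X and 31.6% of 152 on the autosomal arms. With 6 to 10 it was 27.8% of 54 and 58.2% of 268, and with 11 or more 51.7% of 29 and 71.9% of 513. Loci with isoforms of several genes were also fewer on X, 7.27% against 14.3%, as were outermost starts over 100 bp upstream of the RefSeq end, 8.79% against 21.0%. The part of sequencing depth in these values was not tested, since the catalogue holds no read number.

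**Figure D5:**
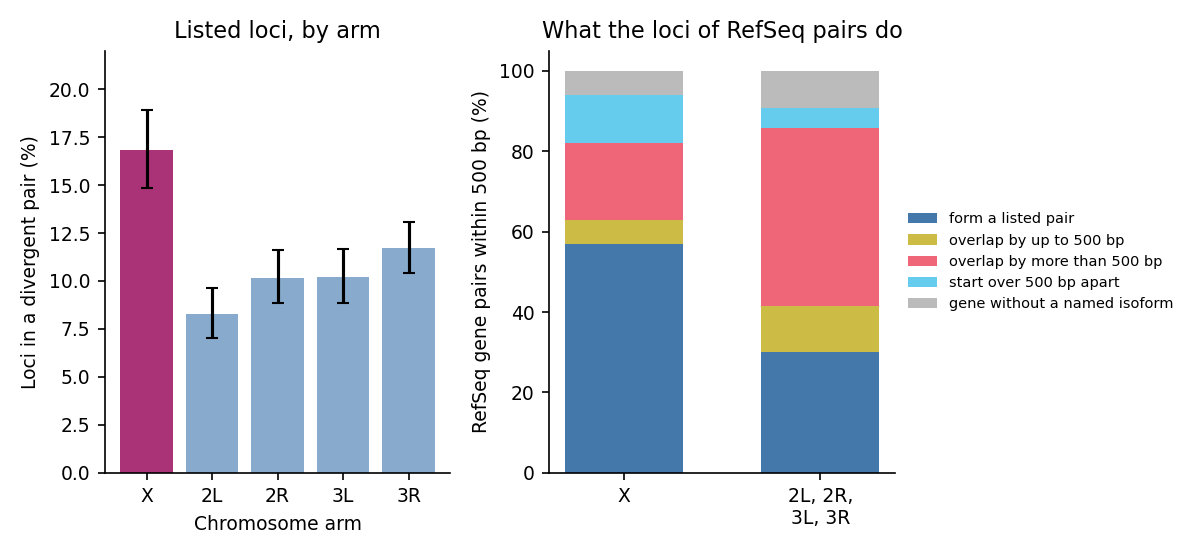
Left, share of loci in a divergent pair in percent on each chromosome arm with 95% exact binomial intervals; right, what became of divergent RefSeq gene pairs in the catalogue on X and on the autosomal arms, in percent of pairs. X stands at 16.8% of loci, and 57.0% of its RefSeq pairs form a listed pair against 30.0% on the autosomal arms.

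By class of gap, the values below are given as a description. The median first exon was 221 bp in pairs with a gap of 0 to 99 bp and 251.5 to 262 bp in the wider classes, and the median number of isoforms was 3 in every class. Unspliced outermost isoforms made up 17.6% of loci at 0 to 99 bp and 9.27% at 300 to 399 bp. The median span of starts was 811, 773, 1265.5, 1180 and 1481 bp from the narrowest to the widest class. The share of pairs on X was 13.8% at 0 to 99 bp, 31.9% at 100 to 199 bp and 19.2 to 24.2% in the classes above.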

How the data were processed

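The authors deposited 1 merged transcript annotation for all 4 samples. Its deposited values are positions, strands and reading frames (no counts). Per the file's own name, TAMA merged the models, which were corrected, filtered (in a further step with tappAS) and given CDS. The builds BDGP6 and dm6, both Release 6, are named per the submitters' processing notes; no aligner, setting or version is given in the sources used here.

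A locus ran from the outermost start to the outermost end of its isoforms. Pairs, their members and the gene lists were chosen with earlier results of these data known. Names came from 16695 RefSeq gene spans of Release 6 plus ISO1 MT. A gene's strand was read from isoforms ending within 200 bp of its ends, at least 80% of them in agreement (9635 genes; 367 ambiguous). An isoform took the best overlapping gene on its strand that held at least 50% of it, which named 34578 isoforms (86.1%). The facing gene is the commonest name among isoforms starting within 100 bp of the outermost start.

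Named in the text are the 10 pairs with most isoforms at the poorer locus, the 5 smallest gaps, the 3 pairs on either side of the limit and the 8 mixed pairs with most non-coding isoforms, with ties taken by chromosome and position. Extremes of start spread and first exon, some pairs with a common symbol stem and examples from the lists are named too. The rule took every list pair, and those not named stand in the counts. Alternatives covered the distance limit, median starts, overlaps, isoform and splicing minimums, the definition of coding, loci of a single RefSeq gene and RefSeq spans. Lists were described by counts, with no test, and 1 list pair is not reported here. Pairs were computed in Python 3.11.15 with NumPy 2.4.6, intervals (exact binomial, 95%) with SciPy 1.17.1, and figures with matplotlib 3.10.9. The pair search was tested on simulated data. A planned search for promoter motifs was not run, since no sequence of the build was used here.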

Additional observations from a re-analysis of the deposited data

How the results depend on the processing

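The catalogue has no read numbers, so what depth limits could not be measured. No paired analysis was possible because the catalogue names no sample, and no replicate could be left out for the same reason. The planned share of pairs with a promoter motif was not run. With a limit of 200 bp there were 164 pairs (3.604% of loci), 147 coding and 15 mixed, with a median gap of 87 bp and a start spread of 811 bp. With 300 bp there were 290 pairs (6.37%), 262 coding and 26 mixed, with a gap of 168 bp. With 1000 bp 15.4% of loci were in pairs, 70 pairs mixed and 5 non-coding, with a gap of 354 bp. With overlaps of up to 500 bp counted the share was 16.04%, the gap 166 bp, the first exon 276 bp, and 67 pairs were mixed and 6 non-coding. Loci with at least 2 isoforms gave 296 pairs (9.43%), 287 coding, 9 mixed and 0 non-coding. Spliced loci gave 27 mixed and 1 non-coding pair. A CDS of at least 300 bp gave 5 non-coding pairs. The first exon was 348 bp as the median over all isoforms. The start spread was 45 bp within 500 bp of the outermost start and 3616 bp with at least 5 isoforms, and the gap between median starts was 649 bp. Alternatives added after seeing the data were the facing gene alone (spread 561.5 bp), loci of 1 RefSeq gene (312 pairs, 10.02% of loci, 288 coding, 22 mixed, spread 585.5 bp) and RefSeq spans (1180 pairs, 23.6% of genes, 1128 coding, gap 245.5 bp). All alternatives for the ratio of X to autosomal shares were also added then: it was 1.26 to 1.77 under the others and reversed to 0.934 with RefSeq spans.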
